A study of Mus musculus with 5 samples.

Results

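Convergent gene pairs are neighbours on opposite strands that are transcribed toward each other, so that their 3′ ends face. Pairs were taken from the mm9 GENCODE protein-coding genes (the longest transcript of each gene, at least 2000 bp). The ends had to overlap or lie at most 2000 bp apart, and neither gene could lie inside the other. The rule, which used no measured value, gave 1486 pairs with 2947 genes, 15.5% of the 19066 coding genes of that length. In 675 pairs (45.4%) the annotated genes overlapped, by a median of 1031 bp and at most 163328 bp, and in 811 pairs a gap with a median of 736 bp lay between the ends. The widest gaps kept were 1995 and 1988 bp, and the closest pairs left out had gaps of 2004 and 2007 bp. No gene belonged to more than 2 pairs, and 25 genes belonged to 2.

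Engaged RNA polymerase was mapped by global run-on sequencing (GRO-seq) in 2 cell types. MESC were V6.5 mouse embryonic stem cells at passages 12 to 14, grown with LIF on irradiated feeder cells (3 samples), and MEF were mouse embryonic fibroblasts from a male E13.5 embryo at passage 2, grown without LIF (2 samples). Both carried the strain label C57Bl/6(f) x 129/Sv(m), and no genetic change or drug was named for either. The deposited reads of each cell type were pooled, with 8616592 reads in MESC and 6583644 in MEF, so each cell type was 1 library, differences could not be set against a spread of replicates, and no p-value was computed. The 95% intervals do not describe the spread between samples. Those of read counts, folds and shares of reads treat every read as an independent molecule, which reads without molecular identifiers need not be. Those of medians and of shares of genes, pairs or ends treat these as independent units, which neighbouring genes need not be.

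Polymerase II does not stop at the annotated end of a gene. It transcribes through the poly(A) signal, the transcript is cut shortly after that signal by the cleavage and polyadenylation complex, and polymerase goes on for some kilobases before it is released. In a run-on experiment the nascent RNA is labelled in isolated nuclei and sequenced with its strand, so reads past the end report this last stage. At a convergent pair the polymerases leaving one gene enter the other gene on its opposite strand.

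Before the pairs were measured, the labels were set against markers. All 6 ES cell markers lay past 4-fold toward MESC, with 3049 body reads there and 6 in MEF, where 3 of them were at 0. All 6 fibroblast markers were at least 4-fold higher in MEF, with 12421 reads there and 314 in MESC, a culture that also held fibroblast feeders. Of 6 macrophage and blood markers 5 had a gene model, and they held 205 reads in MEF and 34 in MESC, with Tyrobp at 0 in MESC. The 4 endothelial markers held 140 reads in MEF and 334 in MESC. In such bulk samples, fewer cells of a type and less RNA per cell cannot be told apart.

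The sequences at the facing ends show what polymerase passes before it meets the partner. The last 30 bases of both genes are printed for 3 of the pairs with the densest transcription on both strands and for 3 pairs whose genes both lay at least 4-fold apart between the libraries in the same direction. They run 5′ to 3′ on each gene's own strand, from the NCBIM37 genome (mm9), and capitals mark the poly(A) signal AATAAA or its common variant ATTAAA.
Slc35b2, chr17:45704589-45704618, plus strand: ttatttgATTAAActgcagcagtgactttg
Hsp90ab1, chr17:45704724-45704753, minus strand: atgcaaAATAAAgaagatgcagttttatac
Apex1, chr14:51546785-51546814, plus strand: atccaagagaAATAAAaggccctactttca
Tmem55b, chr14:51545745-51545774, minus strand: gagcagcagaatataaacaaatcttgtatg
Prr7, chr13:55574487-55574516, plus strand: atAATAAAggtgtgtgatctgctttggtac
Dbn1, chr13:55574787-55574816, minus strand: tgtctgttAATAAAgaaatccagatccctt
Pde1b, chr15:103360453-103360482, plus strand: agccagagatcAATAAAgaagggagaccgg
Ppp1r1a, chr15:103360710-103360739, minus strand: aagaATTAAAgcgatgaagggagaagacaa
Acan, chr7:86259956-86259985, plus strand: tataatAATAAAgacattggaagagatcta
Hapln3, chr7:86260026-86260055, minus strand: ttacttaaataagacttagaatagattttt
Stambpl1, chr19:34314794-34314823, plus strand: cggaAATAAAttgtgctgcaaataacaagc
Acta2, chr19:34315580-34315609, minus strand: catggatatgcatgcgtgacttttaacttg
In Prr7 22 bases lie between the signal and the annotated end, and in Pde1b 13. Neither signal was found in the last 30 bases of Tmem55b, Hapln3 and Acta2, and in Acta2 an ATTAAA lies 43 bases before the end. No match says only that these letters are not in the window.

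Prr7 and Dbn1, 270 bp apart, also serve as an example of a short stretch between 2 facing genes, though shorter gaps occurred. The bases between both ends are printed whole, on the plus strand, because polymerase leaving either gene crosses them.
Between Prr7 and Dbn1, chr13:55574517-55574786: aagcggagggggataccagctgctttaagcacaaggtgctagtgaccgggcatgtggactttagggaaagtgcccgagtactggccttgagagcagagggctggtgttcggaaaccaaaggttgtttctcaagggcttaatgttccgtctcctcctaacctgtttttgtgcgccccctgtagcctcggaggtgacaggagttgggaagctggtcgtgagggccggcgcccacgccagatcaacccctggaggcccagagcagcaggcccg
The stretch holds 59.3% G and C and neither signal on either strand. The 269 bp between Nup85, a nuclear pore gene, and Gga3, a gene of Golgi transport, are shown for the second densest pair with a gap of this kind.
Between Nup85 and Gga3, chr11:115445300-115445568: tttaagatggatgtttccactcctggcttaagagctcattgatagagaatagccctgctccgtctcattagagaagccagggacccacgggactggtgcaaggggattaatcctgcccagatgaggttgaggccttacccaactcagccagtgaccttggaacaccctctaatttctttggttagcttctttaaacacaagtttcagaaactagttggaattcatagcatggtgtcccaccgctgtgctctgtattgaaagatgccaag
It holds 47.2% G and C and also neither signal on either strand.

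Over all 2947 member ends, 72.3% (70.6 to 73.9) carried AATAAA or ATTAAA on the gene's strand in the last 50 bases, and 71.5% (70.8 to 72.2) of the 16119 other coding ends did. AATAAA alone was present at 58.5% of member ends and 58.5% of the others. Members of overlapping pairs carried a signal at 69.0% (66.4 to 71.4) of 1343 ends and members of pairs with a gap at 75.1% (72.9 to 77.2) of 1604. The intervals of these 2 kinds of pair did not overlap, while all members together lay within 1 percentage point of the other genes.

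Most pairs carried polymerase on both strands. A gene was counted as active when the lower Poisson bound of its sense read density from 1000 bp after the start to the annotated end (the body) exceeded the intergenic background of 0.182 reads per kb in MESC and 0.106 in MEF. Genes overlapped by another gene on their own strand were left out, which kept 2600 member genes and 1164 pairs with both genes. In MESC 899 of these pairs (77.2%, 74.7 to 79.6) had both genes active, 234 had 1 and 31 had none. In MEF 803 pairs (69.0%, 66.2 to 71.6) had both active, 306 had 1 and 55 had none. In 759 pairs both genes were active in both libraries, in 140 only in MESC and in 44 only in MEF. MEF was also the shallower library, and the part of depth in these shares was not tested.

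Single members were active more often than other genes. In MESC 87.0% (85.7 to 88.3) of members were active, against 68.1% (67.3 to 68.8) of the 14021 other coding genes and 65% of all 19893 genes tested. In MEF the shares were 82.4% (80.9 to 83.8), 64.7% (63.9 to 65.5) and 61.3%. Overlapping pairs and pairs with a gap had both genes active at like shares, 78.0% and 76.7% in MESC and 70.7% and 67.7% in MEF. Member bodies were shorter than those of other coding genes, with medians of 16.1 and 20.3 kb.

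The densest facing pair joined Hsp90ab1, which encodes the constitutive HSP90 beta chaperone, to Slc35b2, a transporter gene of the Golgi, with 105 bp between them. Hsp90ab1 held 1082 body reads in MESC and 593 in MEF, a body density of 28.1 and 20.1 RPKM (reads per kb, scaled to the library's reads outside mitochondria). Slc35b2 held 115 and 51 reads, 4.96 and 2.87 RPKM. In the last 1 kb of Slc35b2, reads on the opposite strand outnumbered its own, with 433 against 80 in MESC and 146 against 21 in MEF. In the last 1 kb of Hsp90ab1 the order was the other way, 12 against 111 and 21 against 36.

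Apex1, which encodes a DNA repair endonuclease, overlapped Tmem55b, which encodes a lipid phosphatase, by 1070 bp. Within the overlap 44 reads ran with Apex1 and 93 with Tmem55b in MESC, and 13 and 27 in MEF. Tmem55b was 2.56-fold (1.94 to 3.42) denser in MESC, with 224 body reads against 67. Apex1 lay alongside it at 2.48-fold (1.42 to 4.56), with 55 reads against 17. Its body is only 1172 bp long, so the 87.3% of its MESC reads in 1 kb is no sign of a pile-up.

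The pair of Prr7, a gene of a transmembrane adaptor protein, and Dbn1, which encodes the actin-binding protein drebrin, was denser in MEF on both strands. Prr7 held 143 reads in MESC and 242 in MEF, 2.21-fold (1.79 to 2.73) denser in MEF. Dbn1 held 193 and 383 reads, 2.59-fold (2.17 to 3.09) denser in MEF. Both lay under the 4-fold limit.

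The other 3 of the 6 densest pairs differed little between the libraries. Srsf10, a splicing regulator gene, held 594 and 327 body reads and its partner Pnrc2, a nuclear receptor coactivator gene, 59 and 48. Mettl11a, an N-terminal methyltransferase gene, held 485 and 255 reads, and Asb6, a gene of a ubiquitin ligase adaptor, 248 and 148, with 63 bp between the ends. Ppp1r14b, a phosphatase inhibitor gene, held 40 and 45 reads and Fkbp2, a peptidyl-prolyl isomerase gene, 44 and 32. The MESC over MEF ratios of these 6 genes lay between 0.68 and 1.46.

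Densities of the 2 genes of a pair were only loosely related. In pairs with at least 50 reads in each body, the denser gene exceeded the other by a median of 2.20-fold in MESC (473 pairs) and 2.14-fold in MEF (350 pairs). Partners lay within 2-fold of each other in 45.2% and 46.9% of these pairs, and 30 and 18 pairs differed by 10-fold or more. As a description across pairs, which share a library and are not replicates, Pearson's r of the log2 densities was 0.18 in MESC and 0.12 in MEF (Spearman's rho 0.14 and 0.11). For head-to-head pairs at most 2000 bp apart r was 0.22 (376 pairs) and 0.28 (273), with a median fold of 1.96 and 1.93. For same-strand neighbours r was 0.11 in both libraries. Unlike the convergent set, these comparison sets leave out overlapping pairs.

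Between the libraries, fewer members than other genes lay far apart. A body with 50 reads or more in 1 library counted as different if its 2 densities lay 4-fold or more apart, after counts under 3 had been set to 3. Among 1703 such members 90 were that much denser in MESC (5.28%) and 53 in MEF (3.11%), where 8% and 5.5% of all 9488 genes tested were. Both directions together gave 143 members (8.40%, 7.12 to 9.82) and 14.0% (13.3 to 14.8) of the 7432 other coding genes. Within 2-fold lay 73.1% of members and 66.1% of other coding genes, and the median log2 ratio was 0.31 and 0.29. The direction split depended on scaling: of the called members 62.9% were higher in MESC as scaled here, 52.0% (78 and 72 genes) with TMM factors and 50.7% (76 and 74) with median-ratio factors. These factors move the median log2 ratio of all bodies from 0.30 to 0.06 and 0.04. With only the 35-base MESC reads, fewer members were higher in MESC (47) than in MEF (68). The other 897 members free of same-strand overlap stayed under 50 reads.

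Pairs were also counted by whether 1 or both genes differed. Of all 1703 measured members 8.40% were at least 4-fold apart and 73.1% lay within 2-fold. A partner that did not differ was thus the usual case for any member, and whether pairing changed this was not tested. Both bodies were measured in 515 pairs, and 82 of them held at least 1 gene at least 4-fold apart. In 78 of these only 1 gene was, and in 69 the partner lay within 2-fold. The 50 genes higher in MESC had a median log2 ratio of 3.37 and their partners 0.48 (quartiles 0.03 and 0.83). The 28 genes higher in MEF had a median of -2.62 and their partners -0.30 (quartiles -0.55 and 0.27). Both genes passed the limit in the same direction in 4 pairs and in opposite directions in 0. Across the 515 pairs r of the 2 log2 ratios was 0.15 (rho 0.18). It was 0.18 in 389 head-to-head and 0.24 in 265 same-strand pairs, sets that leave out overlapping pairs. Of the head-to-head pairs 23 held such a gene, 1 of them with both genes in opposite directions. Of the same-strand pairs 38 did, and in all 38 only 1 gene was past the limit.

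**Figure D1:**
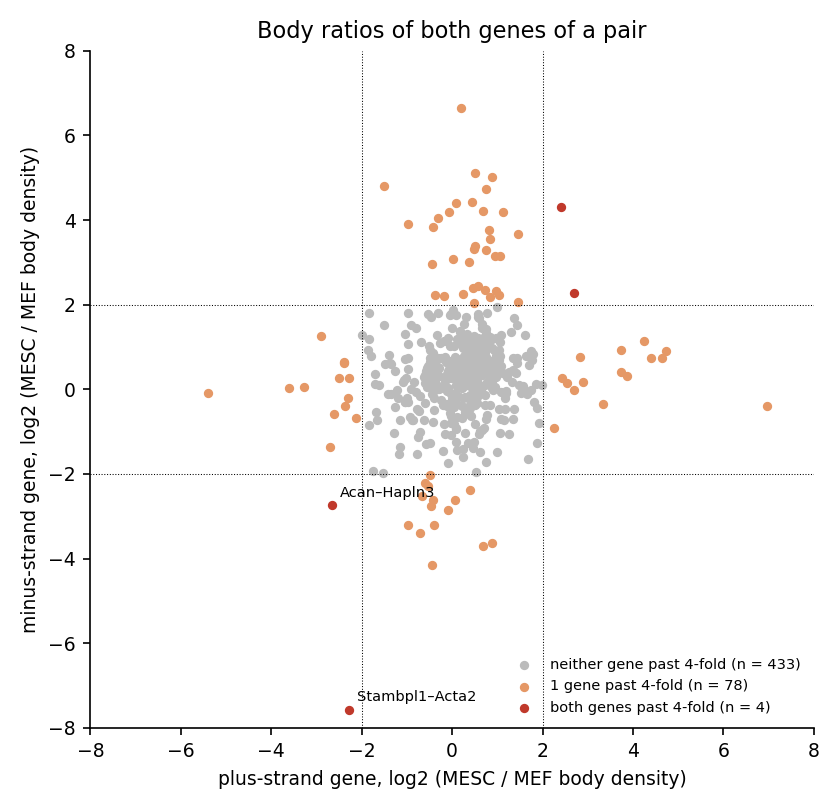
Log2 ratio of body density (MESC over MEF) of the plus-strand gene (x) and of the minus-strand gene (y) in the 515 pairs with both bodies measured. Dotted lines mark 4-fold, and the 78 pairs with 1 gene past it lie along the axes, while 4 pairs have both genes past it, 2 in each direction. The 2 MEF pairs are named.

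The first MEF pair joined Stambpl1, which encodes a deubiquitinase, to Acta2, smooth muscle actin and a member of the fibroblast list. Acta2 held 15 body reads in MESC and 2182 in MEF, 190-fold (115 to 340) denser in MEF. Stambpl1 held 104 and 387 reads, 4.85-fold (3.90 to 6.09) denser in MEF. With 756 bp between the ends, reads of the Acta2 strand ran on into Stambpl1: 816 of them lay in the 5 kb past the Acta2 end in MEF and 2 in MESC. By successive kb past that end, MEF held 407, 270, 89, 28 and 22 reads. In the last 1 kb of Stambpl1 MEF held 317 antisense and 15 sense reads, and MESC 2 and 3.

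The second MEF pair joined Acan, which encodes the cartilage proteoglycan aggrecan, to Hapln3, a gene of a hyaluronan and proteoglycan link protein, 40 bp away. Acan held 45 reads in MESC and 219 in MEF, 6.35-fold (4.59 to 8.96) denser in MEF, and Hapln3 10 and 51, 6.65-fold (3.34 to 14.7). Acan had 32 reads in the 5 kb past its end in MEF. Hapln3 had 0 in both libraries, and in MEF no read of its strand lay within 10 kb of the facing ends. Its MEF reads therefore stood far from the end that faces Acan.

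**Figure D2:**
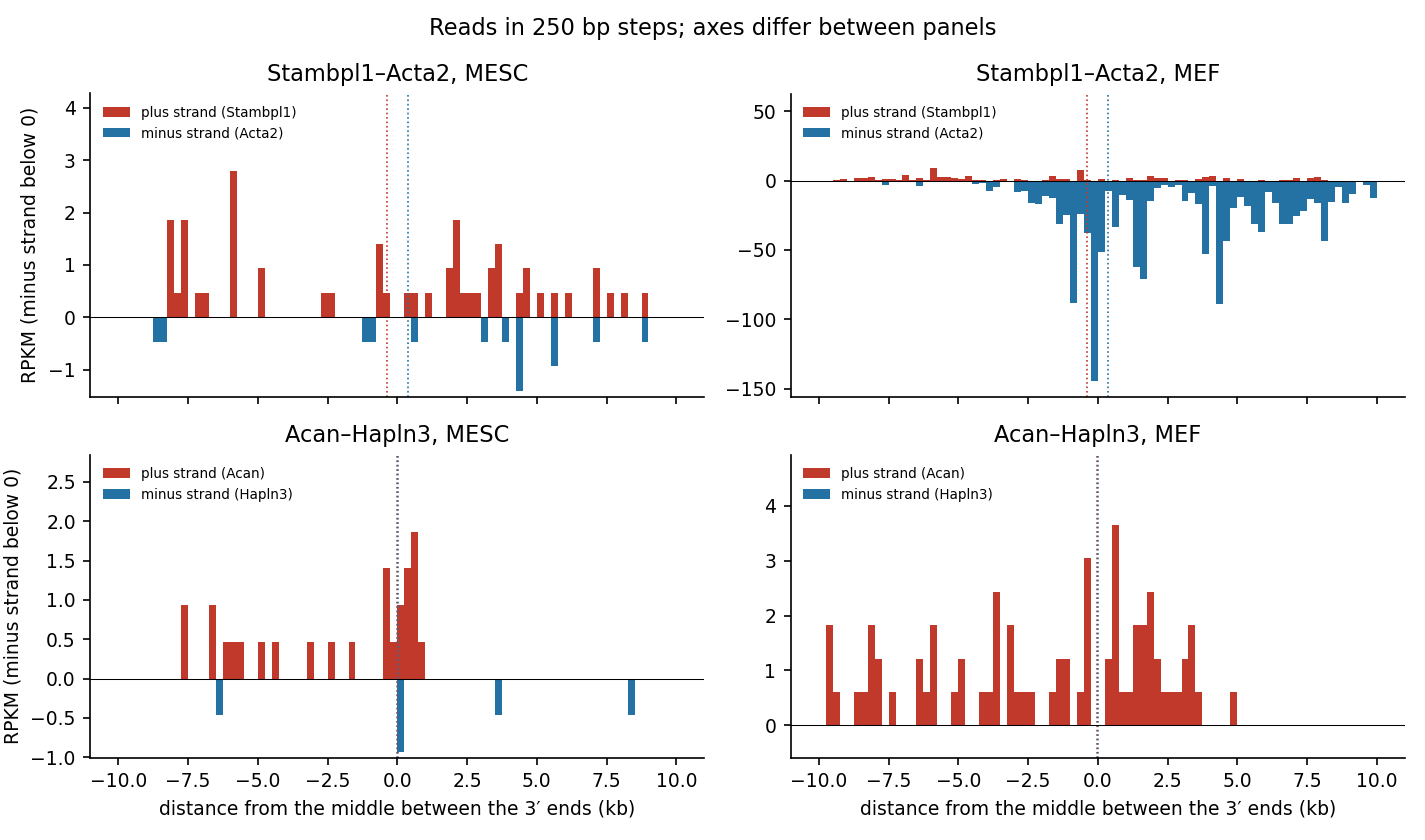
Run-on read density in 250 bp steps (RPKM, minus strand below 0) within 10 kb of the middle between the facing ends of Stambpl1 and Acta2 and of Acan and Hapln3, in MESC (left) and MEF (right). Dotted lines mark the annotated ends and the vertical axes differ: the Acta2 strand runs past its end into Stambpl1 in MEF (816 reads in 5 kb), and the Hapln3 strand is empty there in MEF.

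A pair toward MESC joined Pde1b, a cyclic nucleotide phosphodiesterase gene, to Ppp1r1a, which encodes a protein phosphatase inhibitor, with 227 bp between the ends. Pde1b held 306 reads in MESC and 36 in MEF, 6.52-fold (4.60 to 9.48) denser in MESC. Ppp1r1a held 63 and 10, 4.83-fold (2.46 to 10.6). In the 5 kb past the end Pde1b held 70 reads in MESC and 7 in MEF, and Ppp1r1a 61 and 9. The past-end densities over the body were 1.19 and 1.01 for Pde1b and 1.30 and 1.21 for Ppp1r1a. Reads past the end and in the body thus differed between the libraries by similar factors. The MEF values rest on only 7 and 9 reads past the end.

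The pairs whose genes differed most, with opposite signs, joined a gene less than 3-fold apart between the libraries to one at least 10-fold apart. Fam169a held 2286 reads in MESC and 14 in MEF, 125-fold (74.5 to 229) denser in MESC. Nsa2, a ribosome biogenesis gene that overlaps it by 95 bp, held 151 and 151, a MESC over MEF ratio of 0.77 (0.61 to 0.97). Spnb1, erythroid beta spectrin, held 217 and 6 reads, 27.7-fold (12.5 to 76.4) denser in MESC, while Plekhg3 held 250 and 547, 2.85-fold (2.45 to 3.33) denser in MEF. Tnk1, a tyrosine kinase gene, held 59 and 1 reads, a ratio of the counts as read of 45.2 (7.81 to 1816), while its partner Plscr3 held 78 and 118. Fbxl13, an F-box gene, held 23 and 220 reads, 12.5-fold (8.10 to 20.1) denser in MEF, and Fam185a 461 and 191. Spnb1 and Fbxl13 held 0 sense reads in their last 1 kb in both libraries. In the 5 kb past the end Spnb1 held 0 in both, and Fbxl13 held 0 in MESC and 8 in MEF.

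Further genes high in 1 library, named after their values were seen, had partners within 2-fold where the partner could be compared. Lama5, which encodes a laminin chain of basement membranes, held 1145 reads in MESC and 41 in MEF, 21.4-fold with a lower bound of 15.7, and its partner Adrm1, a proteasome ubiquitin receptor gene, 104 and 59. Camsap3, a microtubule minus-end gene, held 260 and 8, 24.9-fold (12.5 to 58.3), and its partner Xab2, a splicing and DNA repair gene, 287 and 132. Loxl2, a collagen cross-linking oxidase gene, held 140 and 1656, 15.4-fold (13.0 to 18.5) denser in MEF. Its partner R3hcc1 is overlapped by a gene on its own strand and was not compared. Tagln, the actin-binding transgelin gene, held 95 and 768, 10.6-fold (8.51 to 13.2) denser in MEF. Pcsk7, a proprotein convertase gene facing Tagln, held 153 and 192. After scaling, each compared partner leaned toward the same library as the gene it faced. The MESC over MEF ratio was 1.35 for Adrm1 and 1.67 for Xab2, and the log2 ratio of Pcsk7 was -0.71.

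Pou5f1, the Oct4 gene of pluripotent cells and also a listed marker, faced Tcf19. Pou5f1 held 163 body reads in MESC and 3 in MEF, a ratio of 41.7 (14.0 to 204). Past its end MESC held 749 reads in 5 kb and MEF 1. These reads increased with distance, with 45, 42, 142, 170 and 350 in successive kb. Tcf19 held 10 body reads in MESC and 21 in MEF, and in its last 1 kb 119 antisense reads in MESC and 0 in MEF. The macrophage marker Csf1r, which faces Hmgxb3, held 1 read in MESC and 82 in MEF.

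Summed over genes, about as many antisense as sense reads lay in the last 1 kb of convergent genes with an active partner. Over members with at least 50 body reads, 47.8% (47.3 to 48.2) of the reads in the last 1 kb were antisense in MESC and 47.5% (46.9 to 48.1) in MEF. With an active partner the share was 50.0% and 51.3%, and with a partner that was not active 2.39% and 1.99%. Genes with no annotated gene of either strand within 10 kb past the end, called isolated ends here, had 2.50% and 1.79%. Gene by gene, antisense reads outnumbered sense reads in 587 of 1348 genes with an active partner (43.5%) in MESC and 501 of 1124 (44.6%) in MEF. Some active partners left none: Plekhg3 had 0 antisense reads there in MESC and Acan 0 in MEF. In overlapping pairs these reads are partly those of the partner's own body, which also set its activity. Where the last 1 kb of both genes is the same stretch and both are summed, each read counts once as sense and once as antisense. This pulls the share of overlapping pairs toward even. In pairs with a gap the last 1 kb of the 2 genes cannot coincide, and they gave 46.6% and 47.7%.

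The sense density of the last 1 kb lay near that of the body. Its median ratio to the body was 1.11 at isolated ends in MESC, 0.997 in overlapping pairs and 1.16 in pairs with a gap, and in MEF 0.964, 0.905 and 1.03. No sense read at all lay in the last 1 kb of 62 of 706 members of overlapping pairs in MESC (8.78%), 32 of 806 members of pairs with a gap (3.97%) and 335 of 3540 isolated ends (9.46%). In MEF the shares were 10.9%, 5.45% and 11.0%. In both libraries the share for pairs with a gap lay below the other 2, and the intervals did not overlap. Isolated ends had lower body densities, with medians of 0.836 RPKM in MESC and 0.812 in MEF. Pairs with a gap had 1.24 and 1.15 and overlapping pairs 1.26 and 1.14. The part of body density in these shares was not tested.

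The 3 longest overlaps among pairs whose bodies were both active in at least 1 library are given here. Pcca, a propionyl-CoA carboxylase gene, and A2ld1 overlapped by 73722 bp, Arhgap6 and Hccs by 54243 bp, and Gm17231 and Arid3b by 43609 bp. In the first 2 pairs none of the 4 genes had a sense read in its last 1 kb in either library. In the Pcca overlap 123 reads ran with Pcca and 86 with A2ld1 in MESC, and 83 and 49 in MEF, so both strands were read there. In the Gm17231 overlap 395 of the MESC reads ran with Arid3b, an ARID transcription factor gene, and 29 with Gm17231.

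Past the end, convergent genes kept less sense density than isolated genes. The past-end ratio is the sense density in the 5 kb past the annotated end over that of the body, for genes with at least 50 body reads and no same-strand gene in the window. Its median in MESC was 1.21 (quartiles 0.725 and 1.83) over 1512 members and 1.38 (0.854 and 2.02) over 3540 isolated ends. In MEF it was 1.43 (0.918 and 2.06) over 1318 members and 1.62 (1.07 and 2.33) over 3135. The quartiles overlapped widely. Isolated genes also had longer bodies, with medians of 37.4 and 42.0 kb against 20.9 and 22.6 kb, and lower densities, 0.836 and 0.812 RPKM against 1.25 and 1.15. The part of these differences in the result was not tested. Overlapping pairs had medians of 1.15 and 1.30 and pairs with a gap 1.25 and 1.51.

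Among the convergent genes themselves the ratio was lower where the partner was active. In MESC the median was 1.18 (quartiles 0.707 and 1.79) in 1348 genes with an active partner and 1.49 (0.851 and 2.07) in 164 without. In MEF it was 1.38 (0.876 and 2.00) in 1124 genes and 1.65 (1.16 and 2.34) in 194. The active-partner median was 0.795 and 0.837 of the other. These groups had like densities of their own, 1.26 and 1.19 RPKM in MESC and 1.15 and 1.12 in MEF, and body medians of 20.3 and 24.4 kb in MESC and 22.2 and 24.3 kb in MEF. Where no opposite-strand gene started within 6 kb past the end, the medians were 1.17 and 1.43 in MESC and 1.38 and 1.70 in MEF.

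The gap between the groups was seen in each of the 5 kb. With an active partner the MESC medians were 1.49, 1.35, 0.869, 0.541 and 0.343 in successive kb, and without one 1.79, 1.55, 1.14, 0.685 and 0.418. In MEF they were 1.33, 1.51, 1.23, 0.927 and 0.600 with an active partner, and 1.52, 1.88, 1.36, 1.03 and 0.678 without. Density past the end thus stayed high over a longer distance in MEF than in MESC in both groups. Isolated ends had the same order of libraries from the second kb on, with 0.460 in the fifth kb in MESC and 0.856 in MEF.

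**Figure D3:**
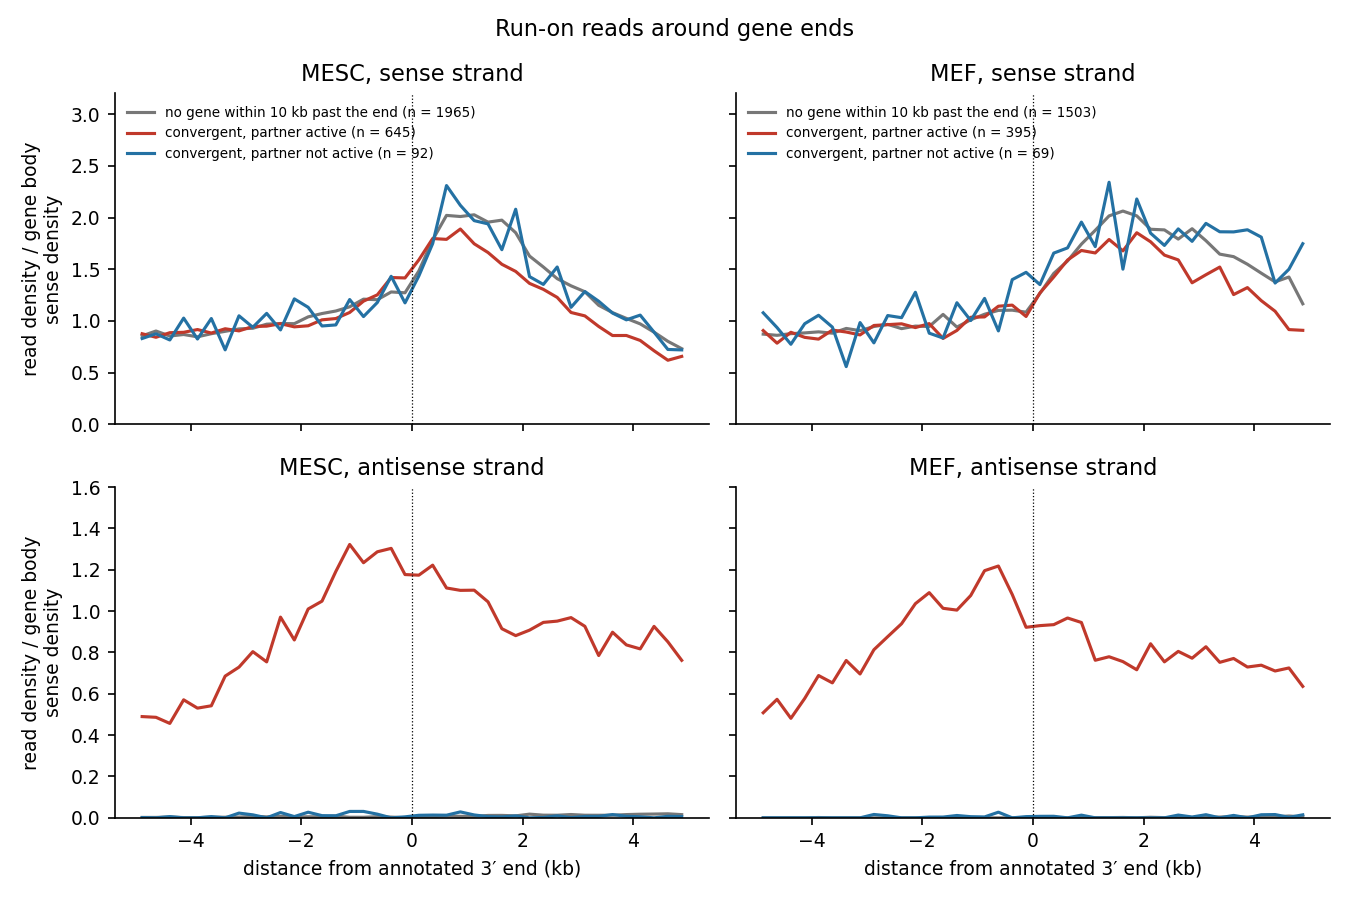
Mean read density in 250 bp steps around the annotated 3′ end, divided by each gene's sense body density (2.5% trimmed from each side), on the sense strand (top) and antisense strand (bottom), for genes of at least 6 kb with at least 200 body reads. At 0.875 kb past the end the sense value in MESC is 1.89 with an active partner, 2.12 without one and 2.01 at isolated ends. The antisense strand is filled only with an active partner (1.10). Partner activity was itself called from body reads on that strand, so for members this largely follows from the grouping.

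When members were ordered by the density of the partner and split into 5 groups of like size, the past-end ratio declined from group to group. In MESC the medians from the least dense to the densest partners were 1.44, 1.29, 1.20, 1.17 and 1.00, at median partner densities of 0.0474, 0.347, 0.814, 1.41 and 2.66 RPKM. In MEF they were 1.63, 1.55, 1.46, 1.32 and 1.12, at 0.0186, 0.258, 0.653, 1.18 and 2.27 RPKM. The lowest group lay near the isolated ends in both libraries. The genes' own density was 1.20 RPKM in the lowest and 1.37 in the highest group in MESC, and 1.20 in both in MEF. Their bodies were shorter in the highest group, 18.4 against 26.1 kb in MESC and 18.9 against 24.3 kb in MEF. An opposite-strand start within 6 kb was more common there, in 72 of 303 genes against 48 of 303 in MESC and 67 of 264 against 39 of 264 in MEF. The part of these differences was not tested.

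**Figure D4:**
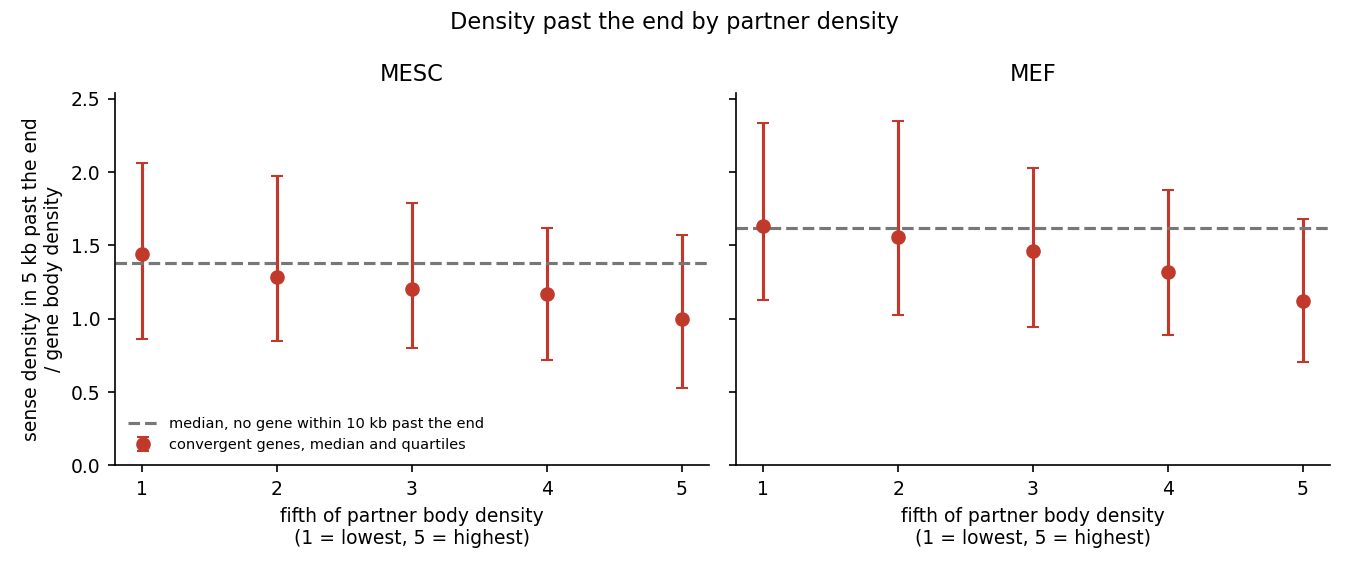
Past-end ratio (sense density in the 5 kb past the end over body density) for 5 groups of genes ordered by the partner's body density, with 302 or 303 genes a group in MESC (left) and 264 or 263 in MEF (right). Points are medians with quartiles, and the dashed line is the median of isolated ends (1.38 and 1.62). Medians decline from 1.44 to 1.00 and from 1.63 to 1.12 and the quartiles overlap.

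The past-end ratio of the same genes was also compared between the libraries, by how far the partner differed. In 42 genes whose partner was at least 4-fold denser in MESC, the median past-end ratio was 1.02 in MESC and 1.47 in MEF. The median log2 change was -0.45 (quartiles -0.72 and 0.04), and 31 of the 42 were lower in MESC. In 24 genes whose partner was at least 4-fold denser in MEF it was 1.74 and 1.72, a change of -0.02 (quartiles -0.25 and 0.22), with 12 of 24 lower in MESC. In 698 genes with a partner within 4-fold the change was -0.18, and at 2889 isolated ends -0.17. The medians of the first and last of these partner groups differed by -0.43, with a range of -0.83 to -0.0026 from the 95% intervals of both medians. Genes that themselves lay within 2-fold gave -0.42 (35 genes) and -0.06 (22 genes), a difference of -0.36 whose range, -0.78 to 0.31, includes 0. The genes of the first group themselves had a median log2 body ratio (MESC over MEF) of 0.47 and those of the last -0.41. In the genes within 2-fold these medians were 0.40 and -0.39, so that limit hardly reduced the genes' own difference. The body density divides the past-end ratio, and the part of the genes' own difference in the change was not tested.

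**Figure D5:**
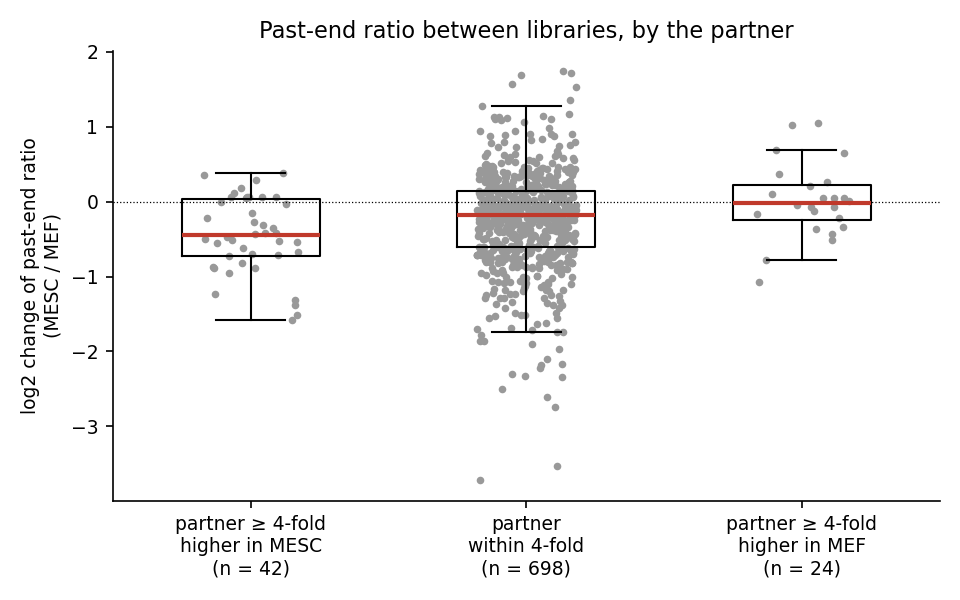
Log2 change of the past-end ratio (MESC over MEF) of convergent genes with at least 50 body reads in both libraries, grouped by the partner's body density. Each point is a gene, boxes give the median and quartiles, and whiskers reach the last gene within 1.5 times the box length. The medians are -0.45, -0.18 and -0.02, and the groups overlap.

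Single genes did not all go the same way. Of the genes within 2-fold whose partner differed most, Oxa1l, a gene for inserting proteins into the inner mitochondrial membrane, faced Slc7a7, an amino acid transporter gene with 1539 body reads in MESC and 34 in MEF. The past-end ratio of Oxa1l was 0.343 (0.246 to 0.466) in MESC and 0.636 (0.456 to 0.862) in MEF, and its last 1 kb held 56 and 3 antisense reads. Hibch, a gene of valine breakdown, faced 1700019D03Rik, whose body had 393 MESC reads and 0 MEF reads, so that it was at least 100.4-fold higher in MESC against a floor of 3 reads per library. Hibch had a ratio of 0.552 (0.203 to 1.20) in MESC and 1.38 (0.660 to 2.53) in MEF, from 6 and 10 reads past the end, and these intervals overlapped.

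Nsa2 and Ssr3 showed no lower ratio in the library of the denser partner. Nsa2 had 0.626 (0.481 to 0.801) in MESC, where Fam169a was dense, and 0.487 (0.360 to 0.644) in MEF. Ssr3, which encodes a subunit of the signal sequence receptor, faced Kcnab1, a potassium channel subunit gene with 25 reads in MESC and 810 in MEF. Its ratio was 1.74 (1.55 to 1.94) in MESC and 1.82 (1.61 to 2.05) in MEF. Kcnab1 held 0 and 2 sense reads in its own last 1 kb. Intervals of these ratios cover the count of reads past the end and not that of the body.

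Some members had far more reads past the end than in the body. Traf3ip3 held 1 body read in MESC and 2 in MEF, with 108 and 81 reads in the 5 kb past its end, 67 and 63 of them in the third kb. Car14, a carbonic anhydrase gene, held 3 and 2 body reads and 84 and 103 past the end, of which 77 and 96 lay in the fifth kb. In Gm17231 172 of 180 reads past the end in MESC lay in the fourth kb, and 45 of 45 in MEF. Cd52 held 64 reads past the end in MESC, 60 of them in the first kb, and 0 in MEF. Best1, a chloride channel gene, held 128 reads past its end in MEF against 4 in the body, and 6530409C15Rik 51 against 6. These reads mostly stood in 1 or 2 kb rather than as a tail falling from the end. An opposite-strand gene started within 6 kb past the end of Gm17231, Car14 and Best1, but not of Traf3ip3, Cd52 or 6530409C15Rik. The part of such starts in these reads was not tested.

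Genes of 3′ end formation differed little between the libraries. Of 29 listed genes for cleavage, polyadenylation and termination 23 were measured. All 23 lay within 4-fold and 22 within 2-fold, with a median log2 ratio of 0.51, where the median of all bodies was 0.30. Of the list 7 genes were themselves members of convergent pairs: Cpsf1, Cpsf4, Fip1l1, Wdr33, Cpsf7, Wdr82 and Cpsf3l. Cpsf1, which encodes the largest CPSF subunit, held 107 and 61 reads beside 235 and 122 in its partner Adck5. Cpsf4, the gene of a zinc finger subunit, held 220 and 109 beside 164 and 75 in Atp5j2, an ATP synthase subunit gene.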

How the data were processed

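Per the file headers, the authors pooled the reads of each cell type, and the series design text names Eland alignment to mm9 with removal of reads in rRNA-like regions. The deposited files list 1 aligned read per line with position, strand and sequence, so their unit is a read count and no normalization is recorded. The treatment of duplicates and of reads with several matches is not given in the sources used here. Because samples could not be told apart, the edgeR test planned for separable samples was replaced by descriptions with exact Poisson, Clopper-Pearson or conditional binomial 95% intervals. Intervals of medians came from order statistics over genes.

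A sample of reads, 1 in 400, was set against NCBIM37, where 93.0% (MESC) and 95.5% (MEF) matched with at most 2 mismatches. Reads were counted by 5′ end and strand (Python 3.11.15, pandas 2.3.3, SciPy 1.17.1, pysam 0.24.0), and totals left out mitochondrial reads. Background came from intergenic 1 kb windows. TMM factors came from edgeR 4.0.16 in R 4.3.3. The steps after counting were tested on simulated counts, and the counting of reads itself was not.

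Members, lists and tests were chosen with earlier results of these data known. Named were: the 6 pairs with the densest weaker body; up to 4 pairs per direction with both genes past 4-fold; the 4 pairs furthest apart with opposite signs; the 3 longest overlaps; the 4 highest past-end ratios per library; and the 4 even genes whose partner differed most. Other names were chosen after their values were seen. Alternatives covered scaling, read minimum, repeated positions, pair distance, gene ends, window length and read length. Those on read length, body length, ribosomal DNA-like loci, opposite-strand starts, ends without reads and genes within 2-fold were added after the data were seen. A few items that these rules would name are not reported here.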

Additional observations from a re-analysis of the deposited data

How the results depend on the processing

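Of 110 values recomputed under alternatives, 91 stayed close to the reported value and 19 moved. Counts and shares have no sign that could turn. Among the ratios, that of the last 1 kb in pairs with a gap over isolated ends crossed 1. For pairs at most 500 bp apart it was 0.985 in MESC, against 1.04 as reported, and in MEF it fell from 1.07 to 1.00. The read minimum moved counts most: with at least 200 body reads, 27 members were higher in MESC and 28 in MEF, 1 pair had both genes past 4-fold in 1 direction, and 14 had 1 gene past it and the other within 2-fold. With no minimum these counts were 171, 83, 11 and 137, and 2 pairs went in opposite directions. With only the 35-base MESC reads, 47 members were higher in MESC and 68 in MEF, which turns the split, and 2 pairs had both genes past the limit. Pairs at most 500 bp apart also held 2 such pairs, and antisense shares of 49.6% in MESC and 46.3% in MEF. With each position counted once the shares were 46.0% and 45.9%, and 85 of the 90 MESC and 53 of the 53 MEF calls stayed past 4-fold. In a 2 kb window past the end the member median was 0.943 of that of isolated ends in MESC and 0.975 in MEF, against 0.874 and 0.883 in 5 kb, so the difference lay mostly beyond 2 kb. In the last 100 bases 74.9% of member ends held a signal. The ratio of past-end medians by partner activity was under 1 in all 20 recomputed values (0.748 to 0.872), but its 95% range included 1 in 7 of them, and the difference of changes between partner groups was below 0 in all 8 (-0.51 to -0.19), but its range included 0 in 6. These values share most genes and reads, so a shared sign is no independent support. No paired analysis was possible because the deposited reads carry no sample name. For the same reason leaving out each replicate, edgeR's quasi-likelihood test and DESeq2 were not run. Depth limits genes with few body reads, and 897 members could not be compared.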

Other observations

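Wdr33, the gene of the CPSF subunit that binds the poly(A) signal, held 1800 body reads in MESC and 766 in MEF, and 242 and 142 reads in the 5 kb past its end. Its partner Sft2d3 held 46 and 34 body reads and 73 and 24 antisense reads in its last 1 kb. Igfbp7, a secreted binding protein gene of fibroblasts, held 76 and 1105 body reads, and its 216 MEF reads past the end were densest in the fourth kb, with 103.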
